A study of Mus musculus with 4 samples.

Results

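The squalene and sterol segment of cholesterol synthesis was examined in MC3T3-E1 cells, a mouse calvarial pre-osteoblast line of C57BL/6 origin. It was represented by 9 genes, taken by gene symbol from the array annotation, of 19938 genes measured: Fdft1, Sqle, Lss, Cyp51, Tm7sf2, Nsdhl, Hsd17b7, Ebp and Dhcr7. These genes carried 10 features of 35556 on the array. Each gene is described by its brightest feature, the one with the highest mean over the arrays, and Fdft1 alone had more than 1. The 4 groups were untreated cells at day 3, cells given the serotonin reuptake inhibitor citalopram at 0.0001 mol per litre for 3 days, untreated cells at day 7, and cells given the same dose for 7 days. All groups shared the same line and a medium with 1% fetal bovine serum. Each group was 1 array, so no group had a replicate, no p-value was attached to any difference, and 1 cell line limits what the cultures can stand for.

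Cholesterol is made in a first segment from acetyl-CoA through mevalonate to farnesyl diphosphate, and in a second segment from there to the sterol. In the second segment, squalene synthase joins farnesyl units into squalene, an oxygen-dependent step and a cyclisation give lanosterol, and a series of demethylations, isomerisations and reductions gives cholesterol. The genes of both segments share a control: when sterols in the endoplasmic reticulum run low, SCAP escorts the SREBP transcription factors to the Golgi, where they are cut and released to the nucleus. The order of the members used here is the order of the reactions.

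The deposited values were taken as log2 expression values, a base inferred from their range, so that a difference of 1 stands for a doubling. A log2 difference of at least 0.32 in size was used as the threshold for counts. All 9 genes were above the floor used to leave out dim genes, the 40th percentile of genes on an array, which lay between 5.95 and 6.01. The median of all features was between 6.50 and 6.66 on the 4 arrays, and Pearson's r between arrays ran from 0.986 to 0.995 over all features. The osteoblast matrix genes Sparc (13.8 to 14.1) and Col1a1 (11.9 to 12.6) were well above the floor, whereas alkaline phosphatase (Alpl, 5.93 to 6.09) lay near it. The osteoblast transcription factor Sp7 was at 7.71 to 8.24, and Runx2, Bglap and Spp1 were not among the genes measured. The chondrocyte genes Sox9 (10.5 to 11.0) and Col2a1 (9.37 to 10.6) were also well above the floor. Of the markers of other cell types, 0 of 3 endothelial, 1 of 4 macrophage, 2 of 5 adipocyte, 3 of 4 myogenic and 3 of 4 chondrocyte genes reached the floor in the comparison of treated with control cells at day 3. Of all 19938 genes, 12196 reached it in that comparison, so these counts alone do not tell whether a cell type was present. With no replicate, the 566 genes with exactly 2 features above the floor served as a yardstick. Between the 2 features of such a gene, the citalopram difference disagreed by a median of 0.11 at day 3 and 0.082 at day 7, and in 90% of them by no more than 0.35 and 0.31. This disagreement may hold transcript isoforms as well as probe error, and it says nothing of the spread between cultures.

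With citalopram, 8 of the 9 genes were higher than control at day 3 and all 9 were lower than control at day 7. The median difference was 0.24 at day 3, against 0.029 over the 12196 genes above the floor, and -0.27 at day 7, against 0.0055 over 12167 genes. Of all genes above the floor, 57.7% were above control at the first time and 48.7% below it at the second. The same 8 genes, all but Ebp, thus crossed from above to below control, a course shared by 26.7% of the 11952 genes that were above the floor on both days. The pair of differences shares no array. When each had to reach 1.1-fold, 6 of the 9 genes met the course against 4.64% of all genes. One of the 8 rests on a near-zero value, since Tm7sf2 at day 3 was at 0.0135 as deposited and at -0.0027 after cyclic loess normalization. RNA was taken from whole cultures, so fewer cells of a type and less RNA per cell cannot be told apart.

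**Figure D1:**
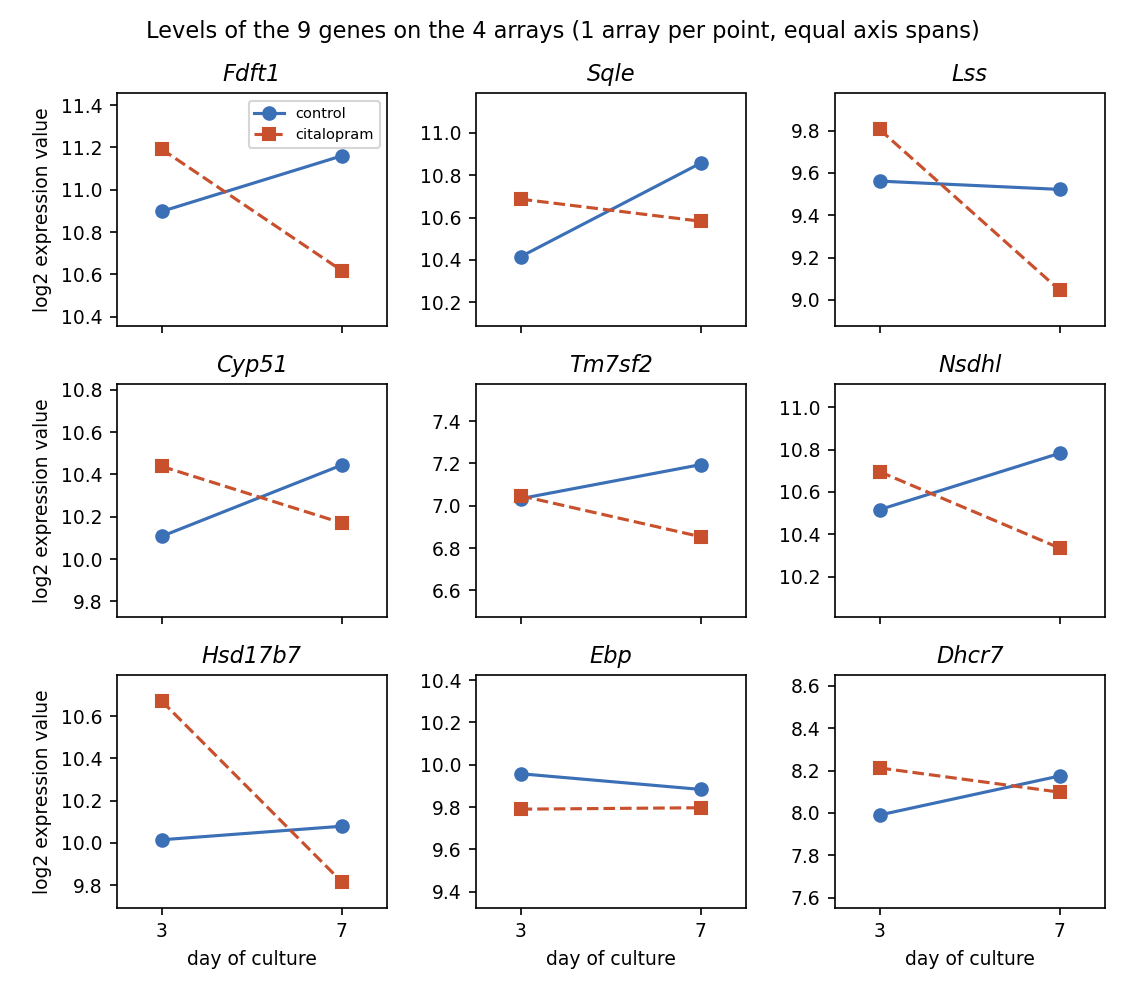
Log2 expression value (vertical axes, equal spans) of each gene against day of culture, with 1 array per point, circles for control and squares for citalopram. The lines cross in 8 of the 9 panels, and in the panel of Ebp both citalopram points lie below control.

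By size, 2 of the 9 genes, Cyp51 and Hsd17b7, were higher with citalopram by at least 0.32 at day 3, against 5.01% of all genes. At day 7, 4 of the 9, Fdft1, Lss, Tm7sf2 and Nsdhl, were lower by at least 0.32, against 6.07% of all genes. None of the genes was past 0.32 in size at both days, which is a description only, since the share of all genes that were was not counted. The count at day 3 rests on small margins: it was 1 after quantile normalization or cyclic loess, which put Cyp51 at 0.29 and 0.30, and 7 at a threshold of 1.1-fold, which 24.6% of all genes passed. The count at day 7 was also 7 at 1.1-fold, against 22.4% of all genes. Only Hsd17b7 at day 3, and Fdft1, Lss, Nsdhl and Tm7sf2 at day 7, went past the disagreement within which 90% of the genes with 2 features stayed. How many of all genes went past that disagreement was not counted, and the genes named for day 7 are those already past 0.32.

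**Figure D2:**
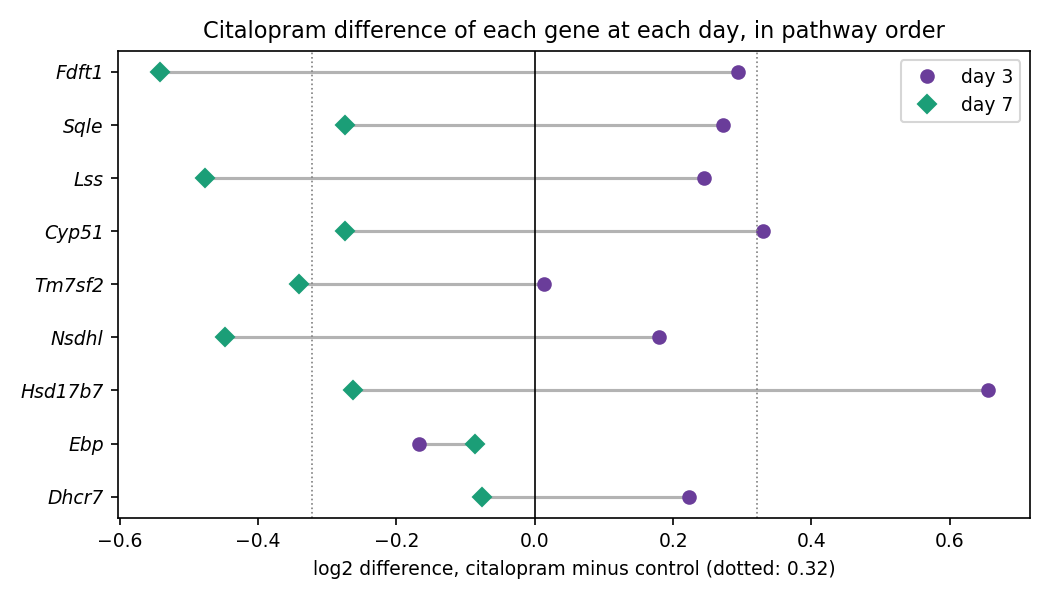
Log2 difference between citalopram and control (horizontal axis) of each gene at day 3 (circles) and day 7 (diamonds), in the order of the reactions, with dotted lines at 0.32 on either side. Day 3 values run from -0.17 for Ebp to 0.66 for Hsd17b7, and day 7 values from -0.54 for Fdft1 to -0.077 for Dhcr7.

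The promoters of 7 of the 9 genes were matched by symbol in RefSeq (GRCm38.p6), as windows of 250 bases before to 50 bases after a transcript start; Dhcr7 had 3 such windows. Fdft1 and Sqle were not matched. The promoters of 4 genes are printed: Hsd17b7 with the largest shift of the 9 between days, Cyp51, Nsdhl, and Ebp, which did not share the course. Capitals mark CCAAT, the core of the NF-Y box, on either strand (ATTGG on the other), and TCACCTCA. The printed genes include both matched genes that hold TCACCTCA, while Lss, Tm7sf2 and Dhcr7, which lack it, are not printed. NF-Y is known as a partner of SREBPs at sterol-responsive promoters.
Hsd17b7, chr1:169969156-169969455, minus strand: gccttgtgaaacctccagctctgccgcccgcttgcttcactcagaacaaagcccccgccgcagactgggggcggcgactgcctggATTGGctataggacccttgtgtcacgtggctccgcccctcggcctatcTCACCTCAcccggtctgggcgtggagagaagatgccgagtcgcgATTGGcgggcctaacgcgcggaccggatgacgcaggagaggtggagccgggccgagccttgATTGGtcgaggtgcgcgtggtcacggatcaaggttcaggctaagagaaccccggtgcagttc
Cyp51, chr5:4104648-4104947, minus strand: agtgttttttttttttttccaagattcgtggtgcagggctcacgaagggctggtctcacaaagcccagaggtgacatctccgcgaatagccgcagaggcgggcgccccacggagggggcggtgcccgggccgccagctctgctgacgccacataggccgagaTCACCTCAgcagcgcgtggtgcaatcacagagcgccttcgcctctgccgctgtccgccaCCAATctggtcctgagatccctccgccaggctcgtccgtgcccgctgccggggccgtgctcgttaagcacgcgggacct
Nsdhl, chrX:72918271-72918570, plus strand: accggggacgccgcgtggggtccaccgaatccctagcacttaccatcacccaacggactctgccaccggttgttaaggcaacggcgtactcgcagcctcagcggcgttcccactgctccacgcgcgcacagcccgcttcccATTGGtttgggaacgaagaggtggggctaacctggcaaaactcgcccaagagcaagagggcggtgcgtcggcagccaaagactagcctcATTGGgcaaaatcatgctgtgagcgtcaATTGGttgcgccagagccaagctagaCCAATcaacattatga
Ebp, chrX:8193463-8193762, minus strand: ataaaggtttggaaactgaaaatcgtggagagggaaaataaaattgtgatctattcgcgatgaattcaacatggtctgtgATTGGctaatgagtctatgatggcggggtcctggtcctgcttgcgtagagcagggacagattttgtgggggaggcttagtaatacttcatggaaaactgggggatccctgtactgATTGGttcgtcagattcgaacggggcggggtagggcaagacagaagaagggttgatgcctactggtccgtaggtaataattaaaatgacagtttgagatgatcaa

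CCAAT was found on either strand in a window of all 7 matched genes, against 41.1% of the 27025 genes with windows and 42.3% of the 17491 protein-coding ones. Nsdhl held 4, Hsd17b7 held 3, and Ebp and Cyp51 held 2 and 1. Ebp, which was lower at both days, thus shared this feature with the genes that crossed. The GC box GGGCGG was likewise in all 7, against 38.2% and 49.2%. The sterol regulatory element in the form TCACNCCAC was found in 0 of the 7, against 1.44% of all genes, which says only that these letters are not in the windows. TCACCTCA, a form chosen after these same promoters had been read, is in Cyp51 and Hsd17b7; because it was picked from them, its presence there is a description only. Over all genes with windows, 1.37% hold it. It begins at position -88 from the transcript start in Cyp51 and at -117 in Hsd17b7. A match describes the letters and is not evidence of binding.

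Squalene synthase, encoded by Fdft1, commits farnesyl diphosphate to sterols. At day 3 the control array of Fdft1 read 10.90 and the citalopram array 11.19, and at day 7 they read 11.16 and 10.62. Citalopram at day 7 was the lowest of the 4 arrays, 1.46-fold below its control (-0.54) and the 149th lowest difference among 12167 genes. At day 3 the difference was 0.29 on the brighter feature and 0.084 on the other, a gap within that of 90% of the genes with 2 features. At day 7 both features were lower, by -0.54 and -0.46. The lower value at day 7 was thus seen on both features, and the higher value at day 3 was small on the second.

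Squalene epoxidase, encoded by Sqle, makes the epoxide that is cyclised next and is often described as a point of control. Sqle was at 10.42 and 10.69 at day 3 and at 10.86 and 10.58 at day 7 (control first in each pair). Its highest array was control at day 7, which stood 1.36-fold above control at day 3. The citalopram differences were nearly equal in size and opposite, 0.27 and -0.27. The treated array at day 7 differed from that at day 3 by -0.10. Lanosterol synthase, encoded by Lss, closes the rings. Lss was at 9.56 and 9.81 at day 3 and at 9.52 and 9.05 at day 7. Unlike Sqle it was nearly level between the control arrays (-0.039), and citalopram at day 7 stood 1.39-fold below control (-0.48), after a difference of 0.24 at day 3.

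Lanosterol demethylase, encoded by Cyp51, is a cytochrome P450 and the target, in fungi, of azole drugs. Cyp51 was at 10.11 and 10.44 at day 3 and at 10.44 and 10.17 at day 7. Its differences were 0.33 and -0.27, and control at day 7 was level with citalopram at day 3. The sterol reductase encoded by Tm7sf2 acts on the product of Cyp51. Tm7sf2 was at 7.03 and 7.05 at day 3, almost level, and at 7.19 and 6.85 at day 7, a difference of -0.34. The enzyme encoded by Lbr, the lamin B receptor, carries out the same reduction. Lbr was lower with citalopram at both days (-0.11 and -0.26).

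The sterol dehydrogenase encoded by Nsdhl and the ketoreductase encoded by Hsd17b7 work in the removal of the methyl groups at the A ring. Nsdhl was at 10.52 and 10.70 at day 3 and at 10.78 and 10.33 at day 7, with differences of 0.18 and -0.45. Hsd17b7 was at 10.02 and 10.67 at day 3 and at 10.08 and 9.82 at day 7. The citalopram array of day 3 stood alone, 0.66 above its control (1.58-fold), and Hsd17b7 was 1 of 9 members past 1.5-fold in that comparison, against 0.5% of all genes. It ranked 41st among the 12196 genes. At day 7 it was at -0.26, so its largest step was between the treated arrays, where day 7 was lower by -0.85.

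The isomerase encoded by Ebp, the emopamil-binding protein, moves a double bond in the B ring. Ebp was at 9.96 and 9.79 at day 3 and at 9.88 and 9.80 at day 7. Its 4 arrays spanned 0.17, the narrowest range of the 9 genes, and citalopram was below control at both days (-0.17 and -0.087). Neither value went past the disagreement that 90% of genes with 2 features stayed within. Dhcr7, which encodes the reductase that acts on dehydrocholesterol, the precursor shared with vitamin D, was at 7.99 and 8.21 at day 3 and at 8.17 and 8.10 at day 7. Its differences were 0.22 and -0.077 as deposited. The day 7 value moved with the scaling, to -0.17 under quantile normalization, -0.11 under cyclic loess and -0.13 with arrays centred on their medians, and that of Ebp moved to -0.14 under the last of these.

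In 8 of the 9 genes the differences at the 2 days had opposite signs, so that the shift between days exceeded either difference. The citalopram difference at day 7 minus that at day 3 had a median of -0.60 over the 9 genes, against -0.026 over the 11952 genes that could be compared on both days. It was -0.92 for Hsd17b7, -0.84 for Fdft1, -0.72 for Lss, -0.63 for Nsdhl and -0.60 for Cyp51. These 5 of 9 genes passed 1.5-fold in that direction, against 1.77% of all genes. Hsd17b7 had the 25th and Fdft1 the 39th most negative shift. Sqle was at -0.55, Tm7sf2 at -0.35 and Dhcr7 at -0.30, whereas Ebp was at 0.081. In 90% of the genes with 2 features, the 2 features disagreed in this shift by no more than 0.52, a size passed by Hsd17b7, Fdft1, Lss, Nsdhl, Cyp51 and Sqle. The share of all genes past 0.52 was not counted. The shift takes up the whole residual of a model with terms for treatment and day, so it could not be tested.

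**Figure D3:**
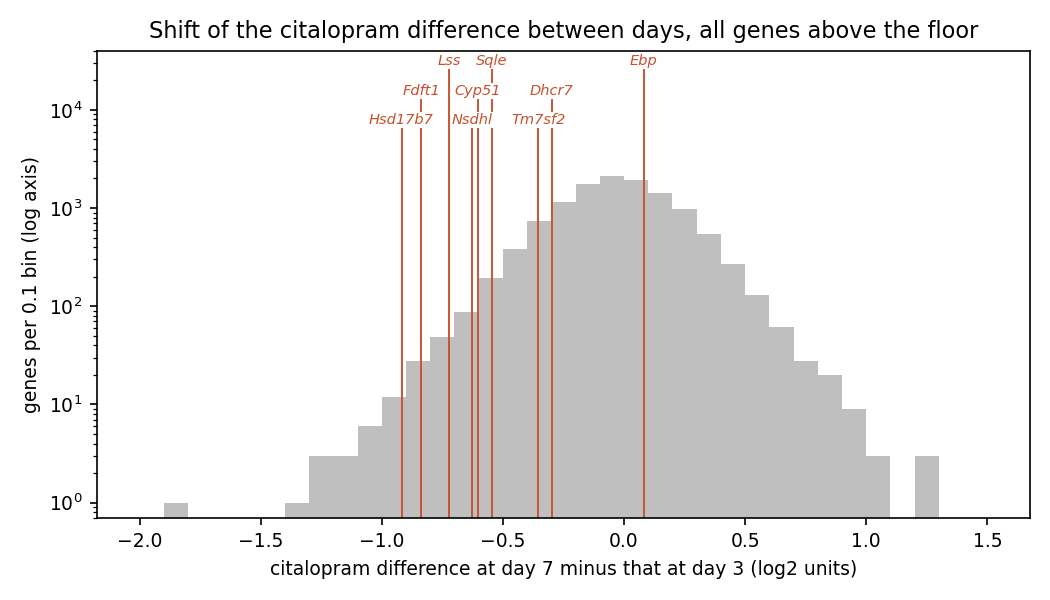
Number of genes above the floor (vertical axis, logarithmic) by the citalopram difference at day 7 minus that at day 3 (horizontal axis, log2 units, bins of 0.1), with a red line for each of the 9 genes. The lines run from -0.92 for Hsd17b7 to -0.30 for Dhcr7, with Ebp alone above 0.

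Within each treatment the genes took different courses with time. These comparisons use the same 4 arrays as those above and are no separate evidence. In control, 7 of the 9 genes were higher at day 7 than at day 3 (median 0.18, against -0.013 over all genes), a direction shown by 47.2% of all genes, with Sqle at 0.44, Cyp51 at 0.34, Nsdhl at 0.27 and Fdft1 at 0.26. Sqle and Cyp51 passed 0.32 in size, 2 of 9 against 6.06% of all genes. With citalopram, 8 of the 9 were lower at day 7 (median -0.27, against -0.035 over all genes), a direction shown by 55.8% of all genes, with Hsd17b7 at -0.85, Lss at -0.76, Fdft1 at -0.57 and Nsdhl at -0.36. These 4 of 9 passed 0.32 in size, against 13.5% of all genes, and Ebp was level at 0.0067. The medians between days depended on the scaling: with each array centred on its own median they were 0.077 in control and -0.42 with citalopram, where that scaling moved the median of all genes to -0.12 and -0.19.

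The other genes of the pathway were taken from lists and are given for context. Of 4 further sterol-segment genes, 3 crossed in the same way, against 26.7% of all genes, among them Msmo1, the methylsterol oxidase that works with Nsdhl (0.27 and -0.48); Lbr was lower at both days. In the mevalonate segment, all 7 measured genes had that course, against 26.7% of all genes, with medians of 0.21 and -0.44. At day 7, 4 of these 7 were lower by at least 0.32, against 6.07% of all genes: Idi1, the isopentenyl diphosphate isomerase (-0.69), Mvk, mevalonate kinase (-0.54), Fdps, which makes farnesyl diphosphate (-0.48), and Mvd, mevalonate diphosphate decarboxylase (-0.44). None of the 7 passed it at day 3. The sterol segment and the mevalonate segment were not tested against each other.

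Among SREBP control genes, 6 were measured on features with a single symbol and 5 of them had the course, against 26.7% of all genes, with medians of 0.13 and -0.085. Srebf2, which encodes the SREBP most tied to sterol synthesis, was at 0.47 and -0.078. Insig1, whose protein retains SCAP in the endoplasmic reticulum and which is itself an SREBP target, was at 0.22 and -0.34. Of the 6 genes of uptake and trafficking, 4 had the course, against the same 26.7%, with medians of 0.20 and -0.081, and Stard4, a sterol carrier, was at 0.22 and -0.42. Of the 6 genes of isoprenoid branches that leave the pathway at the farnesyl pool, 0 had the course, against 26.7% of all genes. All 6 were lower with citalopram at day 3 (median -0.13), as were 42.3% of all genes. At day 7 their median was -0.11, and Fntb, a farnesyltransferase subunit, was at -0.40. Of 6 genes of efflux, esterification and oxysterols, 2 reached the floor in the citalopram comparison of each day. Of all 19938 genes, 12196 reached it at day 3 and 12167 at day 7. The medians of the 6 were -0.022 and 0.00091. Among them the efflux pump Abca1 lay near the floor (5.88 to 6.15) and was at 0.11 and 0.28, Nr1h3 was at -0.058 and -0.22, and Ch25h at -0.23 and 0.026, the last pair of genes being below the floor on all arrays. Tmem97, the sigma-2 receptor and a relative of Ebp, was level at day 3 (-0.0059) and lower at day 7 (-0.52). Ebpl, listed with Tmem97, was at -0.057 and -0.14. Of these 2 genes, 0 had the course, against 26.7% of all genes, and for Tmem97 this rests on a near-zero value at day 3. Of 3 measured electron donors of the sterol oxidases, 1 had it, against 26.7% of all genes. Cyb5r3 was at 0.25 and -0.062, Cyb5a at -0.024 and 0.15, and Cyb5b at -0.16 and -0.27.

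**Figure D4:**
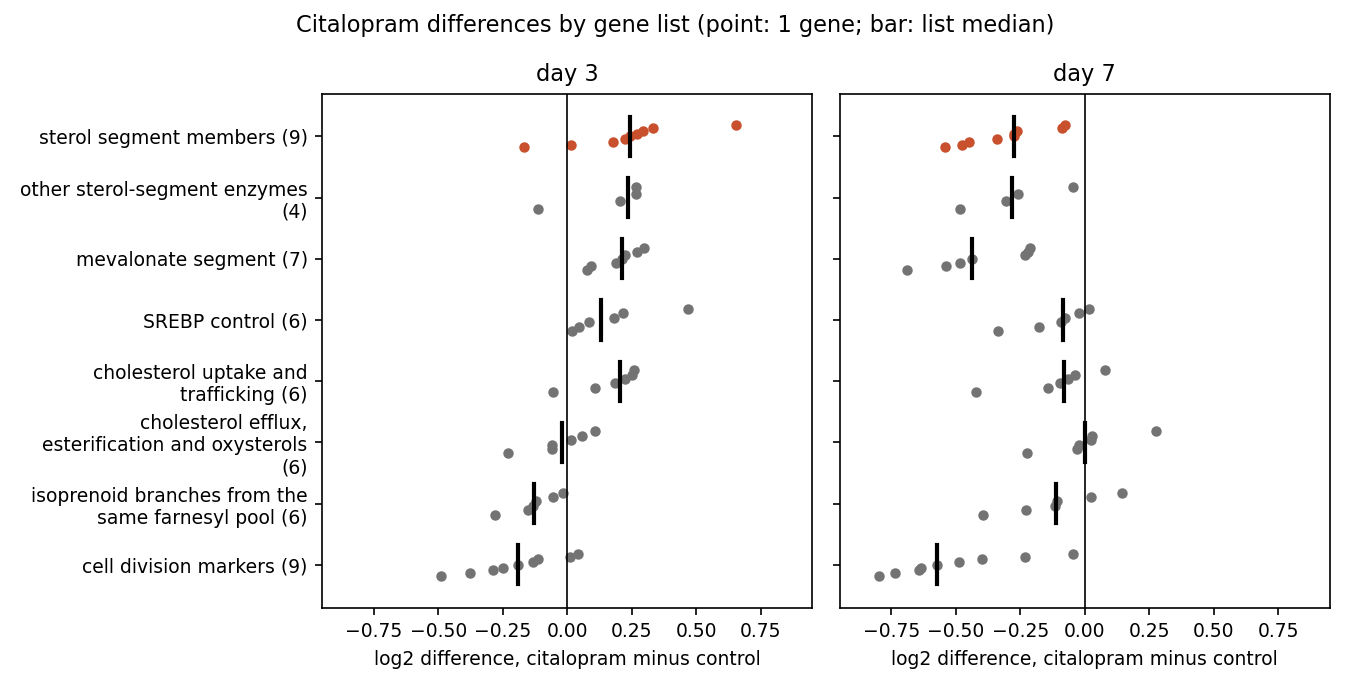
Log2 difference between citalopram and control (horizontal axes) at day 3 and day 7 for each measured gene of 8 lists, with a black bar at each list's median. The sterol segment (red) has medians of 0.24 and -0.27, the mevalonate segment 0.21 and -0.44, and the cell division markers -0.19 and -0.57.

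Markers of other properties of the cultures were followed on the same arrays. Of 9 measured cell division genes, 7 were lower with citalopram at day 3 (median -0.19, where 42.3% of all genes were lower) and 9 at day 7 (median -0.57, where 48.7% were lower). At day 7, 7 of them were lower by at least 0.32, against 6.07% of all genes, from -0.40 for Mki67 to -0.80 for the mitotic kinase Bub1, with Top2a, Cdk1, Mcm5, Rrm2 and Tk1 between. The mean of the 9 was 11.5, 11.3, 11.6 and 11.0 (control and citalopram at day 3, then at day 7). The medians of this list and of the sterol genes thus lay on opposite sides of 0 at day 3 and on the same side at day 7.

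The 5 measured osteoblast markers had a median difference of 0.20 at day 3 and 0.020 at day 7. They ran from -0.057 for Alpl to 0.46 for the transcription factor Sp7 at day 3, and from -0.16 for Alpl to 0.078 for Sp7 at day 7. Of 4 chondrocyte markers, 3 reached the floor at day 3, as did 12196 of all 19938 genes. Col2a1 was at 0.51 and -0.22, Sox9 at 0.41 and 0.28, Col10a1 at -0.28 and -0.43, and Acan was below the floor on all 4 arrays. The mean of the 4 was 7.88, 8.05, 8.07 and 7.98 in the same order. Of 4 myogenic markers, Des, Ckm and Myod1 reached the floor and Myog did not, and the medians were 0.069 and -0.093. The mean of these 4 was 6.45, 6.52, 6.5 and 6.4. The part of the cell division, osteoblast, chondrocyte and myogenic markers in the sterol values was not tested.

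Likeness of pattern was measured as the Euclidean distance between a gene's 4 log2 values, centred on their mean, and the mean centred profile of the 9 genes. At day 3 that profile was at -0.069 for control and 0.16 for citalopram, and at day 7 it was at 0.11 and -0.20. Among 12406 other genes that reached the floor on any array, the 10 nearest were Ms4a10, Slc2a13, Tkfc, Borcs7, Zc3h12a, Tpbg, Ptrhd1, Igf2r, 1700025G04Rik and Dnajc25, at distances of 0.012 to 0.051. Slc2a13 encodes an inositol transporter, Igf2r the mannose 6-phosphate receptor and Zc3h12a an RNase of immune transcripts, and none of the 10 is an enzyme of sterol synthesis. Insig1 was the 16th nearest, at 0.055, and Erg28, a scaffold of the sterol demethylation enzymes, the 19th, at 0.058. These were the best ranked of the further sterol-segment, mevalonate, SREBP control and uptake lists. The other measured genes of those lists ranked from 200th (Npc2) to 10527th (Stard4), with Msmo1 1730th, Idi1 3773rd, Lbr 6454th and Mvk 9724th. The members themselves lay between 0.11 for Nsdhl and 0.43 for Hsd17b7 from their own mean.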

How the data were processed

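The deposited values, 1 per feature and array, were used as log2 expression values; the base is inferred from their range, 3.90 to 15.5. Per the submitters' processing notes the authors used Partek, with no version, whereas the normalization was not given in the sources used here. Per the labels' protocols, 50000 cells were seeded per well with 3 wells untreated and 3 treated, and 250 ng of total RNA was labelled; whether wells were pooled is not given. Precision is limited by the number of arrays.

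A single gene symbol was attached to 21789 of 35556 features, and several to 1621. Members were matched on symbols split at semicolons, and other genes only on features with 1 symbol; the brightest feature stood for each of 19938 genes. A gene was compared if either array reached its 40th percentile of genes. Counts used log2 differences of 0.32 and folds of 1.5 and 1.1. Differences were computed in Python 3.11.15 (pandas 2.3.3, numpy 2.4.6), and other scalings with limma 3.58.1 in R 4.3.3. The counting was tested on made data with known shifts above the threshold and far less noise than the disagreement between features. That checks the code only, and not how well such shifts can be seen on these arrays. All 9 members were named, with other list genes past 0.32 at either day, fixed control genes and the 10 genes nearest in pattern. The members and lists were chosen with earlier results of these data known. Of 98 list genes, 83 were measured and the rest were not analysed here.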

Additional observations from a re-analysis of the deposited data

Results flagged for a closer look

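The citalopram difference had opposite signs at the 2 days in 8 of the 9 genes, higher at day 3 and lower at day 7, with 1 array in each group. The difference between the days was not tested, and 26.7% of genes above the floor at both days had that course. The day 7 difference minus the day 3 difference was -0.60 as the median of the 9 genes. By gene it was -0.92 for Hsd17b7, -0.84 for Fdft1, -0.72 for Lss, -0.63 for Nsdhl, -0.60 for Cyp51, -0.55 for Sqle, -0.35 for Tm7sf2 and -0.30 for Dhcr7.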

How the results depend on the processing

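The alternatives were 3 scalings of the arrays, the mean over a gene's features, features with 1 symbol, members above the floor, the mean over members or a 1.1-fold threshold, and, chosen after seeing the data, features with several symbols. A median was taken as unchanged within 0.1 and a count within 1.5 times. Of 64 values for the medians and counts, 58 were unchanged and no median changed sign. Many of these values could not differ from the main ones. The main values already used features with 1 symbol, and features with several symbols left the feature of each member the same. All 9 members were above the floor, and the mean over features could alter Fdft1 only. The scalings, the mean over members and the 1.1-fold threshold are thus the alternatives that could alter most members. The median difference ranged from 0.22 to 0.24 at day 3 and from -0.33 to -0.27 at day 7, and its shift between days from -0.65 to -0.54. With arrays centred on their medians, the medians of day 7 against day 3 were 0.077 in control and -0.42 with citalopram, since that scaling subtracts array medians that differ between days. The number of genes higher by 0.32 at day 3 was 1 under quantile normalization and 1 under cyclic loess. With a threshold of 1.1-fold the count was 7 for higher values at day 3 and 7 for lower values at day 7. Of the single genes, Tm7sf2 at day 3 turned to -0.0027 under cyclic loess, and Fdft1 at day 3 moved to 0.19 with the mean of its 2 features. No array could be left out, because each group holds 1 array; no other limit on depth can be given for arrays.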
